A study of Mus musculus with 16 samples.

Results

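The 10 genes described here encode the main ligands, receptors and binding proteins of the insulin-like growth factor (IGF) system. They are the ligand genes Igf1 and Igf2, the receptor genes Igf1r and Igf2r, and the binding protein genes Igfbp2, Igfbp3, Igfbp4, Igfbp5, Igfbp6 and Igfbp7. They were chosen by name, and all 10 were found among the 48709 gene features of the count table and passed the filter on low counts, which left 18191 genes for testing. Their RNA was measured by bulk RNA-seq in wild-type ICR mouse salivary glands of embryonic day 13 (E13), with 4 libraries each from the epithelium and the mesenchyme of the parotid gland of the submandibular gland. The extraction protocol describes glands harvested at E13, whereas the series' design text speaks of E13 glands kept in culture for days before dissection, and the labels do not settle which applies to these libraries. No gene was altered and no agent was given in any group, so gland tissue layer are the compared factors.

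IGF1 and IGF2 are secreted growth factors that signal through the tyrosine kinase receptor encoded by Igf1r. Igf2r encodes a receptor, also known as the cation-independent mannose 6-phosphate receptor, that binds IGF2 and carries it to lysosomes without a kinase of its own. IGF binding proteins hold the ligands outside the cell, where proteases such as PAPP-A cut some of them and set ligand free. Salivary glands form by branching of an epithelial bud inside a mesenchyme that supplies growth factors, and comparing the layers shows which side carries the RNA of each component.

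Each library held between 16912258 and 27646844 counts on genes. Levels are given as CPM, the counts scaled by library size with edgeR's TMM factors, and as mean ± SD with n = 4 libraries. A gene is called where edgeR's quasi-likelihood test over all 18191 genes gave a Benjamini-Hochberg adjusted p under 0.05. The layers matched their labels: 18 epithelial markers summed to 3211 to 4044 CPM in the epithelial libraries and 17.7 to 67.7 CPM in the mesenchymal ones. The 16 mesenchymal markers summed to 15420 to 33230 CPM in mesenchyme and 132 to 572 CPM in epithelium. Epithelial libraries thus held summed mesenchymal marker RNA at 1.56% of the mesenchymal level in parotid and 1.45% in submandibular gland. Mesenchymal libraries held summed epithelial marker RNA at 0.888% and 1.38% of the epithelial level. Single mesenchymal markers varied widely around their sum. Fn1 and Vim made up 99.0 and 37.7 of the mean 242 CPM in submandibular epithelium. Log2 fold changes of the 16, epithelium minus mesenchyme, ran from -0.90 (Twist2) to -8.29 (Prrx1) in parotid, with a median of -6.34. In submandibular gland they ran from -3.68 (Vim) to -8.36 (Prrx1), with a median of -6.81. None of the 16 libraries went against its label. In bulk tissue, fewer cells of a type and less RNA per cell cannot be told apart.

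Igfbp2 and Igfbp5 are neighbours on chromosome 1 in GRCm38, at 72824503 to 72852474 on the plus strand 72857932 to 72874884 on the minus strand. They point towards each other with 5457 bases between their annotated ends. The other 8 genes lie at least 74417097 bases from any member on the same chromosome, or alone on theirs. Igf1 spans chromosome 10, 87858265 to 87937042, and Igf2 spans chromosome 7, 142650766 to 142666816. Igfbp7 spans chromosome 5, 77349240 to 77408041. The 3 binding protein genes below had the largest differences between the parotid and submandibular mesenchyme, all in the same direction, and their promoters are shown for that reason. Each is the 250 bases before the first RefSeq start of the gene (GRCm38.p6), 5′ to 3′ on the gene's strand. Capitals mark matches to the GC box letters GGGCGG on either strand, so that a match on the other strand reads CCGCCC. The TATA box letters TATAAA and CCAAT letters were searched on both strands as well. No searched motif shares letters with another in these windows.
Igfbp2, chr1:72824230-72824479, plus strand: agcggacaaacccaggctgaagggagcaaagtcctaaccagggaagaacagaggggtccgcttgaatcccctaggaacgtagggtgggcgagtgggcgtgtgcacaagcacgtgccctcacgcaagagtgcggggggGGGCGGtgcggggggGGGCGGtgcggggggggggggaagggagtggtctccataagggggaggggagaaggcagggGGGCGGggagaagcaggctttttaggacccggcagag
Igfbp5, chr1:72874866-72875115, minus strand: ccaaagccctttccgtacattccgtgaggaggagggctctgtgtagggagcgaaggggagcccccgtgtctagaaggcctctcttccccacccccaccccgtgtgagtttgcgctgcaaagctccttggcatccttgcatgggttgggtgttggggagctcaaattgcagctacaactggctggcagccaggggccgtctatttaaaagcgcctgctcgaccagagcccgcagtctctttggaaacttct
Igfbp7, chr5:77408046-77408295, minus strand: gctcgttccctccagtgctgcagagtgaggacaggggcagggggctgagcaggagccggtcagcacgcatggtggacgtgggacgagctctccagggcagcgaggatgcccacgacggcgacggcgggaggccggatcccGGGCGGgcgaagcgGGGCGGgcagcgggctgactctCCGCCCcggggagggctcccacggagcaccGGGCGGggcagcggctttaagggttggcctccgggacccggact
The Igfbp2 window held 3 GC boxes, the Igfbp7 window held 4, and the Igfbp5 window held none. TATAAA and CCAAT were not found in these 3 windows. Over the 32851 mouse promoter windows of the same length, 32.74% held GGGCGG, 12.37% held TATAAA and 33.85% held CCAAT. The GC content of the windows was 67.2% for Igfbp2, 58.8% for Igfbp5 and 74.0% for Igfbp7. Among the other members, TATAAA was found before the first start of Igfbp4 and of Igfbp6. A match is a description of the letters alone.

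The first comparison asks which layer of each gland carried the RNA. In the parotid gland 9 of 10 genes were called: 2 were higher in epithelium (Igfbp2 and Igfbp5) and 7 were lower (Igf1, Igf2, Igf2r, Igfbp3, Igfbp4, Igfbp6 and Igfbp7). Of all genes tested, 31.4% were called higher and 33.5% lower in that contrast, so calls in either direction were common. In the submandibular gland 1 gene was higher in epithelium (Igfbp5) and 7 were lower, against 33.3% and 33.7% of all genes. The median log2 fold change of the 10 genes, epithelium minus mesenchyme, was -1.196 in parotid and -1.33 in submandibular gland, beside -0.0044 and 0.014 over all genes.

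**Figure D1:**
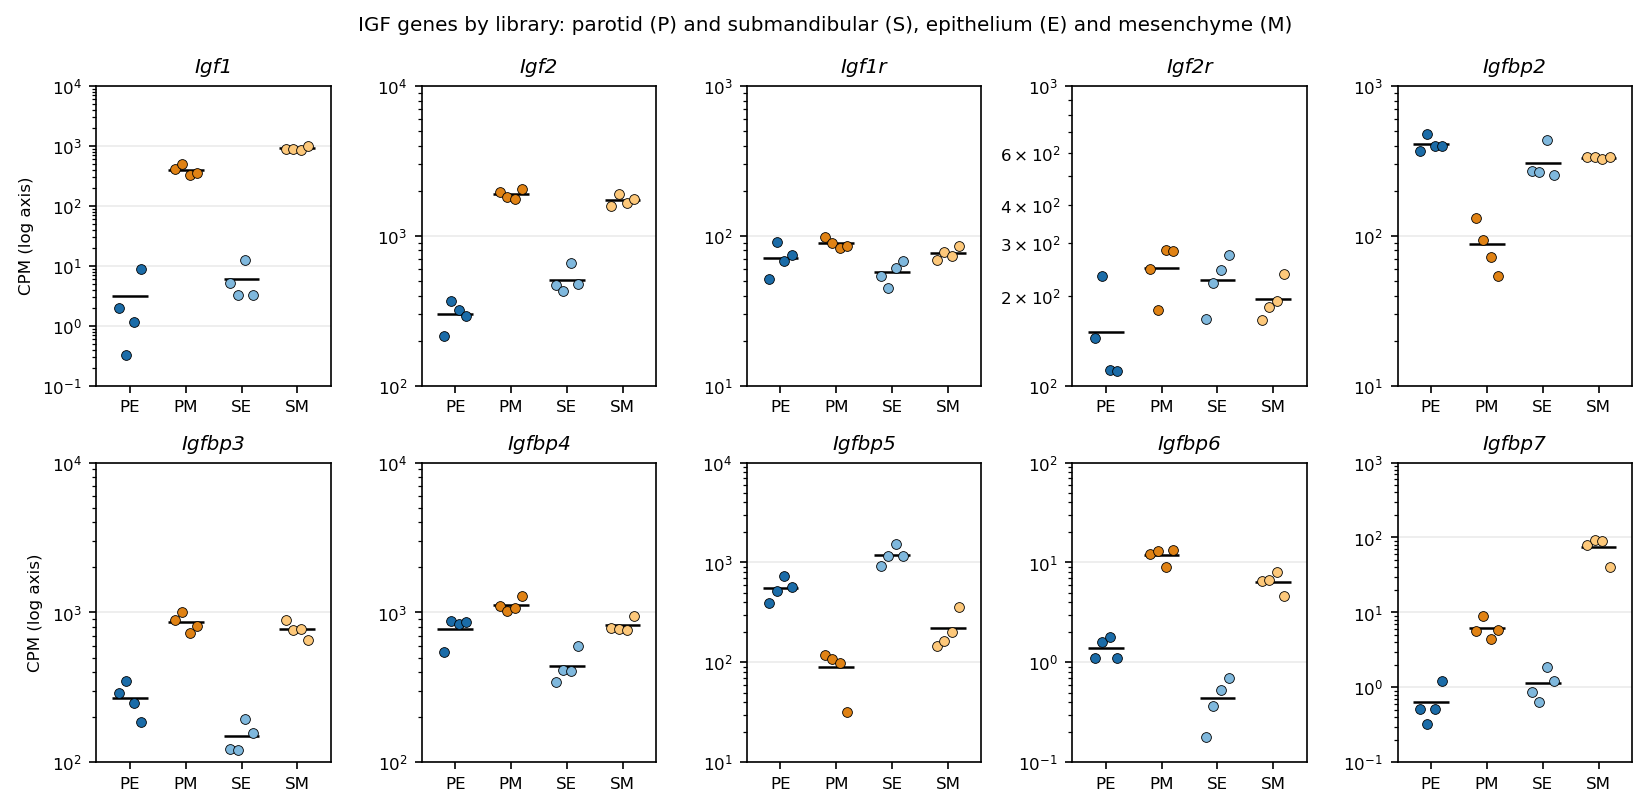
CPM (log axis, a scale for each panel) of the 10 genes in each of the 16 libraries, by gland (P parotid, S submandibular) and layer (E epithelium, M mesenchyme); points are libraries and bars are group means. Igf1 sits at 334 CPM or more in every mesenchymal library and at 12.7 CPM or less in every epithelial one, while Igfbp5 is higher in the epithelium of both glands.

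Of the ligands, Igf1 was almost confined to mesenchymal RNA. In parotid epithelium its 4 libraries read 1.99, 0.328, 1.18 and 8.96 CPM, and in submandibular epithelium 5.25, 3.22, 12.7 and 3.26 CPM. In parotid mesenchyme they read 410, 496, 334 and 352 CPM, and in submandibular mesenchyme 878, 877, 871 and 1008 CPM. The layers did not overlap in either gland, and the 2 mesenchymes did not overlap with each other. The log2 fold change between layers was -7.01 ± 0.72 (SE, adjusted p = 9.66e-07) in parotid and -7.25 ± 0.71 (adjusted p = 5.73e-07) in submandibular gland, about 129-fold and 152-fold. Epithelial Igf1 stood at 0.783% and 0.672% of the mesenchymal level, below the summed share of the 16 mesenchymal markers in the same libraries. Its log2 fold changes lay within the range of the single markers in both glands. The highest epithelial reading of each gland, 12.7 CPM in submandibular replicate 3 and 8.96 CPM in parotid replicate 4, came from libraries with 473 and 544 CPM of mesenchymal markers, the highest and second highest of their groups. Parotid replicate 3, with the most at 572 CPM, read 1.18 CPM of Igf1. Parotid replicate 4 also had the highest endothelial (21.3 CPM), macrophage (31.3 CPM), skeletal muscle (41.0 CPM) and erythroid (487 CPM) marker sums of its group. The part of any of these cell types in the epithelial Igf1 readings was not tested.

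Igf2, the ligand most associated with fetal growth, was abundant in mesenchyme and also well present in epithelium. Parotid mesenchyme read 1970, 1808, 1768 and 2046 CPM, and submandibular mesenchyme 1585, 1893, 1647 and 1775 CPM. These 2 groups overlapped. Parotid epithelium read 216, 367, 321 and 294 CPM, and submandibular epithelium 470, 429, 665 and 476 CPM, so that every submandibular library was above every parotid one. Epithelial levels were lower than mesenchymal ones by 2.66 ± 0.15 on the log2 scale in parotid (adjusted p = 1.87e-10) and by 1.76 ± 0.15 in submandibular gland (adjusted p = 1.72e-08). Epithelial Igf2 stood at 15.8% and 29.6% of the mesenchymal level, compared with 1.56% and 1.45% for the mesenchymal markers.

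Per kilobase of annotated exon, which allows levels of different genes to be compared, Igf2 ranked 63rd in parotid mesenchyme and 54th in submandibular mesenchyme among 18142 genes. The per-kilobase level of Igf2 was 8.46 ± 1.60 times that of Igf1 in parotid mesenchyme and 3.30 ± 0.31 times in submandibular mesenchyme, and these ratios did not overlap between the glands. Both are smaller with the longest annotated transcript as the length. In parotid mesenchyme Igf1 then stood at 56.4 instead of 40.2 CPM per kilobase, and Igf2 at 402 instead of 332. The Igf2 locus carries other transcripts that share exon bases with Igf2, and the kit does not mark strand. Igf2os, on the opposite strand, shares 98 exon bases with Igf2 and held 1419 counts over all libraries. A same-strand annotated gene, Gm49394, covers 62.8% of the Igf2 exon bases and has no row of its own in the counts. Marking strand would not separate its reads.

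The receptor genes varied far less. Igf1r, the signalling receptor, read 52.0 to 90.5 CPM in parotid epithelium, 83.7 to 98.8 in parotid mesenchyme, 45.1 to 68.5 in submandibular epithelium and 69.5 to 86.0 in submandibular mesenchyme. It was lower in submandibular epithelium than in its mesenchyme by 0.43 ± 0.15 on the log2 scale (adjusted p = 0.0168), a call that was lost without submandibular epithelium replicate 2 (adjusted p = 0.0664) or submandibular mesenchyme replicate 4 (adjusted p = 0.0525). In parotid the layers overlapped and the log2 fold change of -0.33 ± 0.15 did not pass (adjusted p = 0.0583), although it did pass without parotid epithelium replicate 2 (-0.46, adjusted p = 0.0116). It also passed with DESeq2's size factors in edgeR (adjusted p = 0.0343), by DESeq2 (adjusted p = 0.0294), by limma-voom (adjusted p = 0.0389) and among genes with a mean CPM of at least 1 (adjusted p = 0.0469).

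Igf2r, the clearance receptor, had parotid readings of 145, 233, 113 and 112 CPM for epithelium and of 245, 179, 284 and 281 CPM for mesenchyme. It was lower in parotid epithelium by 0.71 ± 0.22 on the log2 scale (adjusted p = 0.0104), with overlapping libraries, since epithelial replicate 2 was above mesenchymal replicate 2. The submandibular layers overlapped at 167 to 274 CPM in epithelium and 167 to 237 CPM in mesenchyme, with a log2 fold change of 0.22 ± 0.22 (adjusted p = 0.404). Per kilobase, Igf2r was 3.85 ± 1.16 times Igf1r in parotid epithelium, 5.03 ± 1.19 in parotid mesenchyme, 7.20 ± 1.32 in submandibular epithelium and 4.56 ± 0.34 in submandibular mesenchyme. These ratios are smaller with the longest annotated transcript as the length. In parotid epithelium Igf1r then stood at 6.24 instead of 4.24 CPM per kilobase, and Igf2r at 16.97 instead of 16.21. Airn, an antisense RNA of the Igf2r locus, overlaps Igf2r introns without sharing exon bases.

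Among the binding proteins, Igfbp5 was the member higher in epithelium in both glands. Submandibular epithelium read 915, 1150, 1537 and 1157 CPM and parotid epithelium 396, 516, 730 and 569 CPM. Submandibular mesenchyme read 147, 165, 203 and 362 CPM and parotid mesenchyme 117, 109, 98.6 and 31.7 CPM. The 4 groups did not overlap in this order. The log2 fold change, epithelium minus mesenchyme, was 2.63 ± 0.38 in parotid (adjusted p = 2.27e-05) and 2.44 ± 0.38 in submandibular gland (adjusted p = 4.13e-05). Mesenchymal Igfbp5 was 16.2% and 18.4% of the epithelial level, compared with 0.888% and 1.38% for the 18 epithelial markers.

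Its neighbour Igfbp2 shared the epithelial excess in the parotid gland alone. Parotid epithelium read 369, 479, 396 and 396 CPM and parotid mesenchyme 132, 93.8, 72.7 and 54.1 CPM, without overlap. Submandibular epithelium read 272, 267, 438 and 256 CPM, and submandibular mesenchyme read 337, 337, 325 and 335 CPM, within the range of the epithelium. The log2 fold change between layers was 2.22 ± 0.23 in parotid (adjusted p = 3.03e-07) and -0.11 ± 0.22 in submandibular gland (adjusted p = 0.665). The interaction test of this contrast between the glands gave 2.33 ± 0.31 on the log2 scale (adjusted p = 5.93e-05).

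Igfbp3, which encodes the main carrier of IGFs in adult serum, was lower in epithelium by 1.68 ± 0.18 on the log2 scale in parotid (adjusted p = 5.00e-07) and by 2.37 ± 0.19 in submandibular gland (adjusted p = 1.00e-08). Its libraries read 187 to 348 CPM in parotid epithelium, 735 to 1008 in parotid mesenchyme, 121 to 195 in submandibular epithelium and 653 to 892 in submandibular mesenchyme. Igfbp4, a binding protein cut by PAPP-A, was lower in epithelium by 0.52 ± 0.16 in parotid (adjusted p = 0.0100) and by 0.90 ± 0.16 in submandibular gland (adjusted p = 0.000108). Epithelial Igfbp4 was 69.9% of the mesenchymal level in parotid and 53.4% in submandibular gland, so both layers carried it.

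Igfbp6, whose protein prefers IGF2 over IGF1, was scarce throughout. Parotid mesenchyme read 9.08 to 13.3 CPM and submandibular mesenchyme 4.57 to 8.0 CPM. The epithelial libraries of the parotid gland read 1.10 to 1.79 CPM and those of the submandibular gland 0.180 to 0.697 CPM, the latter from 5, 9, 10 and 19 counts. The log2 fold change between layers was -3.09 ± 0.30 in parotid (adjusted p = 9.08e-08) and -3.86 ± 0.33 in submandibular gland (adjusted p = 1.79e-08).

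Igfbp7, a related protein that binds IGFs weakly, was highest in submandibular mesenchyme. That group read 78.8, 93.8, 89.8 and 40.3 CPM, whereas parotid mesenchyme read 5.58, 9.04, 4.38 and 5.88 CPM. Parotid epithelium read 0.509, 0.328, 0.518 and 1.205 CPM and submandibular epithelium 0.863, 0.645, 1.86 and 1.21 CPM, and these overlapped. The lowest submandibular mesenchymal library, replicate 4, was above the highest parotid one. The log2 fold change between layers was -6.08 ± 0.39 in submandibular gland (adjusted p = 1.07e-09) and -3.27 ± 0.41 in parotid (adjusted p = 2.37e-06). Submandibular epithelial Igfbp7 stood at 1.51% of the mesenchymal level, close to the 1.45% of the summed mesenchymal markers, and parotid epithelial Igfbp7 at 10.3%. The median log2 fold change of those markers in submandibular gland was -6.81, further from equal levels than that of Igfbp7. The annotated 3′ end of Polr2b, on the other strand, shares 85 exon bases with Igfbp7. Over all libraries Polr2b held 84270 counts and Igfbp7 6570, and the kit does not mark strand. Whether Polr2b reads add to the low epithelial Igfbp7 readings was not tested.

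**Figure D2:**
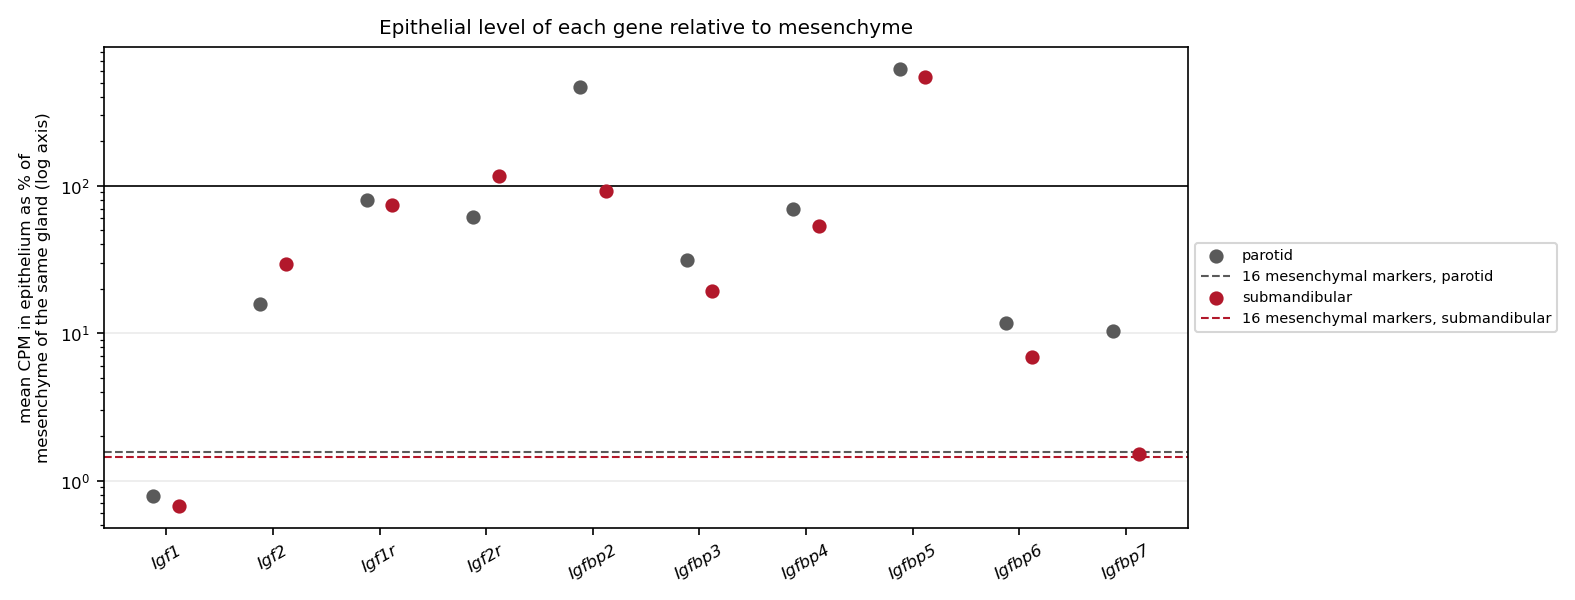
Mean CPM in epithelium as a percentage of mesenchyme of the same gland (log axis) for each gene, with dashed lines for the summed 16 mesenchymal markers and a solid line at equal levels. The wide spread among single markers is not drawn. Igf1 lies below both dashed lines at 0.783% and 0.672%, submandibular Igfbp7 lies beside them at 1.51%, and Igfbp5 lies above the line of equal levels in both glands.

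The second comparison asks how the glands differ within a layer, a question raised by a study of tissue recombination between them. In epithelium 5 of 10 genes were called: Igfbp3, Igfbp4 and Igfbp6 were higher in parotid and Igf2 and Igfbp5 were lower. Of all genes tested, 11.2% were called higher and 9.72% lower. In mesenchyme 5 of 10 were called: Igfbp4 and Igfbp6 were higher in parotid, and Igfbp2, Igfbp5 and Igfbp7 were lower, where 20.8% and 13.7% of all genes were called. The median log2 fold change of the 10 genes, parotid minus submandibular, was -0.13 in epithelium and 0.15 in mesenchyme, beside -0.0016 and 0.036 over all genes.

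**Figure D3:**
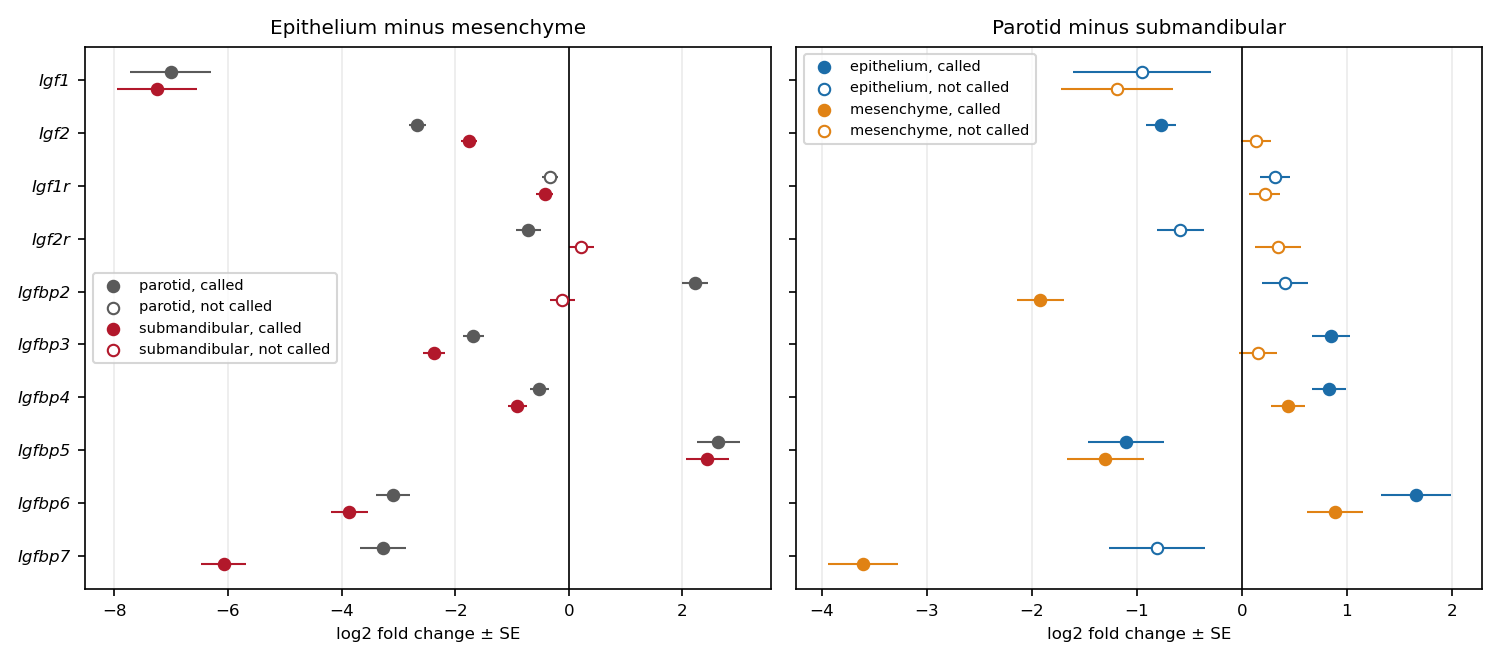
Log2 fold changes with their SE for the 10 genes between layers in each gland (left) and between glands in each layer (right); filled symbols have an adjusted p under 0.05. The epithelial excess of Igfbp2 is present in parotid (2.22) and not in submandibular gland (-0.11), and the mesenchymal gland difference of Igfbp7 (-3.61) is the largest of those between glands.

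In epithelium, Igf2 was lower in parotid by 0.77 ± 0.15 on the log2 scale (adjusted p = 0.00135), 1.70-fold, without overlap. Igfbp3 was 1.80-fold higher in parotid epithelium (log2 fold change 0.85 ± 0.18, adjusted p = 0.00343), although parotid replicate 4, at 187 CPM, was below submandibular replicate 3, at 195 CPM. Igfbp4 was 1.78-fold higher (0.83 ± 0.16, adjusted p = 0.00189), with parotid libraries of 542, 871, 843 and 868 CPM against 343, 412, 410 and 595 CPM. Parotid replicate 1 was the 1 parotid library below a submandibular one. Igfbp6 was 3.16-fold higher (1.66 ± 0.33, adjusted p = 0.00223) without overlap, at the low levels given above. These 3 genes are higher in mesenchyme than in epithelium, and the mesenchymal markers in the epithelial libraries reached 438 ± 140 CPM in the parotid ones and 242 ± 159 CPM in the submandibular ones, with 8 of 16 called higher in parotid. Macrophage markers moved the same way, with 9 of 12 called higher and library sums of 20.1 to 31.3 CPM against 1.04 to 11.8 CPM. Epithelial levels as a share of mesenchymal ones were 31.2% in parotid and 19.3% in submandibular gland for Igfbp3, 69.9% and 53.4% for Igfbp4, and 11.7% and 6.86% for Igfbp6, where the mesenchymal markers stood at 1.56% and 1.45%. The part of these cell types in the gland differences was not tested. Parotid replicate 3 and submandibular replicate 3 were the epithelial libraries of each gland with the most mesenchymal marker RNA. Without them the calls of Igf2, Igfbp3, Igfbp4 and Igfbp6 held and that of Igfbp5 did not (adjusted p = 0.106). The libraries left had 302 to 544 CPM of mesenchymal markers in parotid and 132 to 220 CPM in submandibular gland. The glands thus still differed in these markers, and this fit does not test their part.

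Igfbp5 was lower in parotid epithelium by 1.11 ± 0.36 on the log2 scale (adjusted p = 0.0425), 2.15-fold and without overlap. This call was marginal: it was lost in 12 of the 16 fits that left out 1 library, with adjusted p from 0.00888 to 0.107. Leaving out any epithelial library of either gland ended it, as did leaving out replicates 2 or 3 of either mesenchyme, and the fit with no filter on low counts (adjusted p = 0.133). Igf1, at 3.12 ± 3.96 and 6.10 ± 4.48 CPM, did not pass (-0.95 ± 0.66, adjusted p = 0.336), but was called lower in parotid epithelium without parotid replicate 4 (-2.31, adjusted p = 0.0102). Igf2r gave -0.58 ± 0.22 (adjusted p = 0.0739) and was called without parotid replicate 2 (-0.86, adjusted p = 0.00513), with upper-quartile scaling (adjusted p = 0.0489), by DESeq2 (adjusted p = 0.0413) and by limma-voom (adjusted p = 0.0472). Igf1r gave 0.32 ± 0.15 (adjusted p = 0.136) and was called without parotid replicate 1 (0.46, adjusted p = 0.0208). Igfbp2 gave 0.41 ± 0.22 (adjusted p = 0.190) and was called without submandibular replicate 3 (0.65, adjusted p = 0.0369), the library with the most Igfbp2 in its group. Igfbp7 gave -0.81 ± 0.46 (adjusted p = 0.226).

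In mesenchyme, Igfbp7 was lower in parotid by 3.61 ± 0.34 on the log2 scale (adjusted p = 6.11e-07), 12.2-fold. Igfbp2 was lower by 1.92 ± 0.22 (adjusted p = 7.35e-06), 3.78-fold, and Igfbp5 by 1.30 ± 0.37 (adjusted p = 0.0125), 2.46-fold. None of these 3 overlapped between the glands. The parotid mesenchymal libraries differed among themselves as well: replicate 4 had the lowest Igfbp2 (54.1 CPM) and Igfbp5 (31.7 CPM) and also the lowest skeletal muscle marker sum, 305 CPM beside 1167 to 1326 CPM. Its smooth muscle and pericyte (526 CPM) and Schwann cell lineage (23.9 CPM) sums were the lowest of its group too. Its mesenchymal (33230 CPM), neuronal (622 CPM) and erythroid (2175 CPM) sums were the highest. A link of any of these to Igfbp2 or Igfbp5 was not tested. The 3 calls held without that library. Igfbp6 was higher in parotid mesenchyme by 0.89 ± 0.27 (adjusted p = 0.0161), a call lost without submandibular replicate 4 (0.75, adjusted p = 0.0523). Igfbp4 was higher by 0.44 ± 0.16 (adjusted p = 0.0438), without overlap, and its call was lost in 12 of the 16 fits that left out 1 library, with adjusted p up to 0.115, and also with upper-quartile scaling (adjusted p = 0.102), no filter (adjusted p = 0.114) and a mean CPM of at least 1 (adjusted p = 0.0511).

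Igf1 presents a different case in mesenchyme. Every submandibular library was above every parotid one, the group means were 909 ± 66 and 398 ± 73 CPM, and the ratio was 2.28. The test over all 16 libraries gave -1.19 ± 0.54 on the log2 scale and did not pass (adjusted p = 0.103). In the fit of the 8 mesenchymal libraries alone the same difference was called (-1.27, adjusted p = 1.7e-05), as it was by limma-voom (-1.21, adjusted p = 0.000128) and without parotid epithelium replicate 4 (-1.195, adjusted p = 0.0171). The shared estimate of the spread in the first fit includes the epithelial libraries, where Igf1 counts were 7 to 239. The limma-voom fit held all 16 libraries as well. Why these fits differed was not tested. Igf2 (0.14 ± 0.14, adjusted p = 0.498), Igf1r (0.22 ± 0.15, adjusted p = 0.266), Igf2r (0.34 ± 0.22, adjusted p = 0.2501) and Igfbp3 (0.16 ± 0.18, adjusted p = 0.542) were not called between the mesenchymes, and their libraries overlapped.

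Markers of other cell types differed between the mesenchymes as follows. The sum of 13 endothelial markers was 612 to 921 CPM in the parotid libraries and 674 to 933 CPM in the submandibular ones, and their median log2 fold change was -0.14. Skeletal muscle markers summed to 1017 ± 479 and 195 ± 76 CPM, with 9 of 10 called higher in parotid, and smooth muscle and pericyte markers to 659 ± 93 and 201 ± 19 CPM, with 8 of 10 called higher. Mesenchymal markers summed to 28010 ± 4444 and 16730 ± 1012 CPM, with 5 of 16 called higher. Igfbp2, Igfbp5 and Igfbp7 differed in the opposite direction to these muscle, pericyte and mesenchymal sums. Single markers were mixed. Pdgfra (-0.53), Prrx1 (-0.54), Twist2 (-0.36), Twist1 (-0.14), Myh11 (-0.89) and Cnn1 (-1.175) had negative log2 fold changes, none of them called. The other mesenchymal, smooth muscle and pericyte markers had positive ones. The erythroid sum was 1431 to 2175 CPM against 3280 to 4114 CPM, the direction of Igfbp2, Igfbp5 and Igfbp7. Its median log2 fold change was -0.25 over 7 tested markers, none of them called. Schwann cell lineage sums ran from 23.9 to 90.9 CPM in parotid and from 37.5 to 71.8 CPM in submandibular gland. The median log2 fold change of these markers was -0.87 (1 of 8 higher, 1 lower), the direction of Igfbp2, Igfbp5 and Igfbp7. Their mean sum was higher in parotid, at 65.8 against 55.2 CPM. In both glands these sums ranked the mesenchymal libraries in the same order as Igfbp5. Igfbp2 shared that order in parotid only, and Igfbp7 in neither gland. Neuronal sums were 439 ± 144 and 70.6 ± 62.1 CPM (3 of 8 called higher, 2 lower), and macrophage sums 128 ± 31 and 73.8 ± 15.1 CPM (1 of 12 higher). Cartilage sums were 213 ± 17 and 80.3 ± 20.6 CPM (2 of 7 tested higher, 3 lower), and epithelial sums 30.6 ± 20.8 and 52.2 ± 11.1 CPM (2 of 18 higher, 2 lower). The part of these cell types in the gland differences was not tested.

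The interaction tests whether the gland difference in epithelium was the same as in mesenchyme. It was called for 4 of 10 genes, compared with 20.9% of all genes tested. Igfbp2 gave 2.33 ± 0.31 on the log2 scale, from gland differences of 0.41 in epithelium and -1.92 in mesenchyme. Igfbp7 gave 2.80 ± 0.57 (adjusted p = 0.00223), from -0.81 and -3.61. Igf2 gave -0.91 ± 0.20 (adjusted p = 0.00419), with a parotid deficit in epithelium and a difference of 0.14 in mesenchyme. Igf2r gave -0.93 ± 0.31 (adjusted p = 0.0461), a call lost in 12 of the 16 fits that left out 1 library, with adjusted p up to 0.103, and also with upper-quartile scaling (adjusted p = 0.0556) and no filter (adjusted p = 0.156). For Igfbp5, whose gland difference was -1.11 in epithelium and -1.30 in mesenchyme, the interaction was 0.19 ± 0.51 (adjusted p = 0.841), and for Igf1 it was 0.24 ± 0.85 (adjusted p = 0.885). Neither of these shows that the 2 gland differences are equal.

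Summed per kilobase of exon, the 6 binding protein genes gave 579 ± 73 CPM per kilobase in parotid epithelium, 606 ± 46 in parotid mesenchyme, 514 ± 100 in submandibular epithelium and 718 ± 17 in submandibular mesenchyme. In parotid epithelium Igfbp2 held 38.5% ± 2.6 of the summed per-kilobase level, Igfbp4 30.4% ± 3.8, Igfbp5 15.9% ± 3.2 and Igfbp3 14.9% ± 3.9. In submandibular epithelium Igfbp5 held 38.5% ± 2.0, Igfbp2 32.3% ± 4.4, Igfbp4 19.7% ± 4.9 and Igfbp3 9.23% ± 0.65. Parotid mesenchyme was made up mostly of Igfbp3, at 45.2% ± 3.4, and Igfbp4, at 42.0% ± 5.5, with Igfbp2 at 7.81% ± 2.60. Submandibular mesenchyme held Igfbp3 at 34.3% ± 3.6, Igfbp4 at 26% ± 3.1, Igfbp2 at 25.1% ± 0.6 and Igfbp7 at 8.70% ± 2.79.

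**Figure D4:**
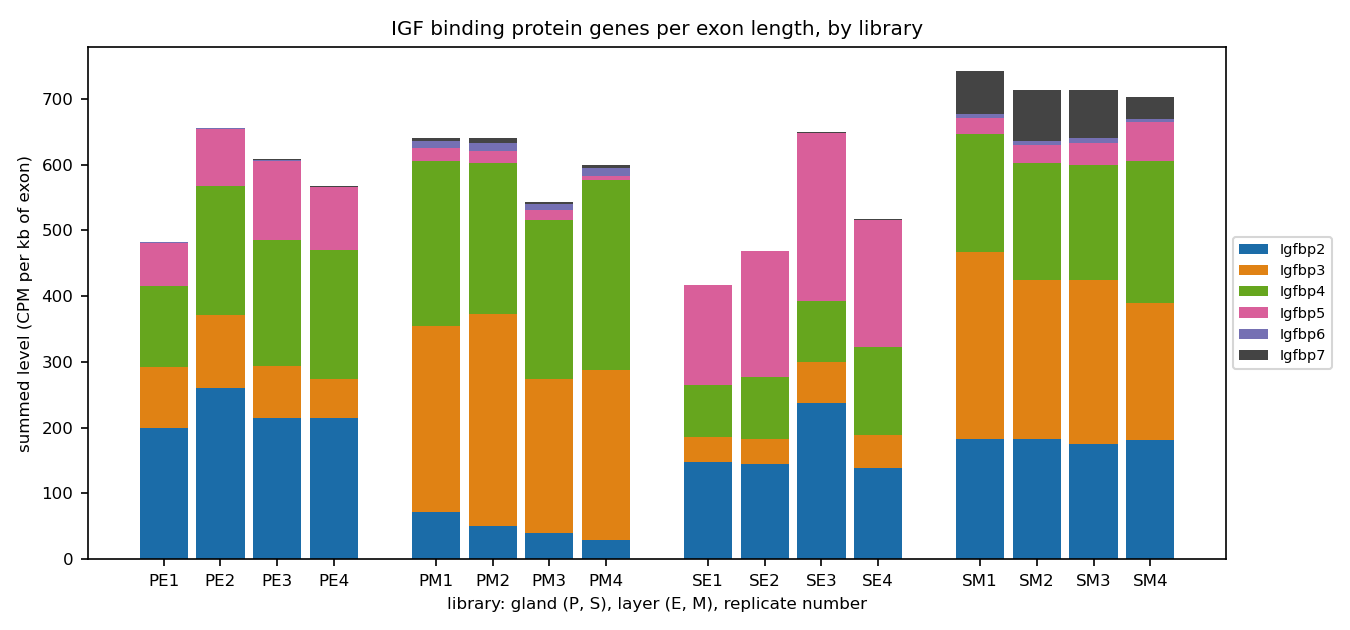
Stacked levels of the 6 binding protein genes in CPM per kilobase of annotated exon, 1 bar for each library, labelled by gland (P, S), layer (E, M) and replicate. Igfbp5 (pink) makes up 38.5% on average in submandibular epithelium and 15.9% in parotid epithelium, and Igfbp7 (black) reaches 8.70% in submandibular mesenchyme.

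The order of these shares depends partly on the length used. With the longest annotated transcript instead of all exons, Igfbp2 rather than Igfbp5 came first in submandibular epithelium, at 236 against 198 CPM per kilobase, and Igfbp2 moved ahead of Igfbp4 in submandibular mesenchyme, at 255 against 215. In parotid epithelium Igfbp3 moved ahead of Igfbp5, at 110.8 against 92.02 CPM per kilobase. Relative to the summed per-kilobase level of the ligand genes, the binding protein sum was 11.2 ± 1.1 in parotid epithelium, 5.75 ± 0.57 in submandibular epithelium, 1.84 ± 0.16 in submandibular mesenchyme and 1.63 ± 0.10 in parotid mesenchyme. The epithelial ratios, 5.05 to 12.7, were above all mesenchymal ones, 1.53 to 2.03, and the 2 epithelia did not overlap. These are ratios of RNA and not of protein.

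The other genes of the pathway were grouped as extracellular regulators, receptors and intracellular relay, and the Igf2 locus with regulators of Igf2 RNA. Of 8 extracellular regulators, 4 passed the filter; Igfbp1, Igfals, Igfbpl1 and Pappa2 averaged under 1 CPM in every group. In mesenchyme 3 of the 4 were higher in parotid and 1 was lower, and in epithelium 1 was higher and 2 were lower. The shares of all genes called were those given above, 20.8% higher and 13.7% lower in mesenchyme and 11.2% and 9.72% in epithelium. Pappa, the protease that cuts IGFBP4, was lower in parotid mesenchyme, at 28.1 ± 9.8 against 91.3 ± 7.6 CPM (log2 fold change -1.70 ± 0.29, adjusted p = 0.000304). It was lower in parotid epithelium as well (-0.93 ± 0.30, adjusted p = 0.0386), and its interaction was not called (adjusted p = 0.217). Stc1, one of the stanniocalcins, secreted glycoproteins that inhibit PAPP-A, was higher in parotid mesenchyme, at 324 ± 139 against 27.02 ± 3.58 CPM (3.58 ± 0.28, adjusted p = 1.61e-07). Its relative Stc2 was higher in parotid epithelium, at 17.02 ± 2.08 against 3.96 ± 1.34 CPM (2.11 ± 0.31, adjusted p = 0.000144). Stc2 was higher in parotid mesenchyme as well (1.67 ± 0.34, adjusted p = 0.00103), and its interaction was not called (adjusted p = 0.557). Htra1, a secreted serine protease, was higher in parotid mesenchyme (1.99 ± 0.26, adjusted p = 1.46e-05) and lower in parotid epithelium (-1.67 ± 0.27, adjusted p = 0.000433). Its interaction was called, at -3.66 ± 0.38 (adjusted p = 3.01e-06), and so was that of Stc1, at -4.00 ± 0.39 (adjusted p = 3.27e-06).

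Between the parotid layers, 3 of these 4 were lower in epithelium and 1 was higher. Stc1 gave -5.38 ± 0.31, Htra1 -4.13 ± 0.29 and Stc2 2.35 ± 0.31 on the log2 scale. In the submandibular gland 2 were lower and 1 was higher. All-gene shares were 33.5% lower and 31.4% higher for the parotid layers, and 33.7% and 33.3% for the submandibular ones. In the submandibular gland the log2 fold changes placed Pappa at -2.50 ± 0.30, Stc2 at 1.91 ± 0.34 and Stc1 at -1.37 ± 0.27. The adjusted p of these 6 values ranged up to 0.000345.

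All 19 genes of the receptor and relay group were tested. Between the epithelia 1 was higher in parotid, Irs1 (0.78 ± 0.20, adjusted p = 0.0112), and 1 was lower, Irs2 (-0.76 ± 0.19, adjusted p = 0.00894). Both encode adaptors that the receptor phosphorylates. These 2 of 19 compare with 11.2% of all genes called higher and 9.72% lower. Between the mesenchymes 5 were higher in parotid and 4 lower, where 20.8% and 13.7% of all genes were called. Insrr, which encodes an orphan relative of the insulin and IGF1 receptors, read 29.96 ± 3.68 CPM in submandibular mesenchyme and averaged at most 0.913 CPM in the other groups. Its difference between the mesenchymes was -5.04 ± 0.39 on the log2 scale (adjusted p = 5.70e-08), and its interaction was 5.46 ± 0.93 (adjusted p = 0.000454). Irs4 was under 0.5 CPM on average in every group, with a called difference between the mesenchymes. Pik3r1, a regulatory subunit of PI3-kinase, was higher in parotid mesenchyme (1.39 ± 0.18, adjusted p = 1.99e-05), and its interaction was -1.70 ± 0.26 (adjusted p = 0.000148). Foxo3, a transcription factor that AKT inactivates, had an interaction of 1.37 ± 0.38 (adjusted p = 0.0166). Between layers, 1 gene of the group was higher and 11 were lower in parotid epithelium, and 3 were higher and 12 lower in submandibular epithelium. The shares of all genes were 31.4% higher and 33.5% lower in parotid, and 33.3% and 33.7% in the submandibular gland. In parotid the lower genes included Insrr (-2.78 ± 0.54) and Pik3r3 (-1.53 ± 0.23). In the submandibular gland Insrr gave -8.24 ± 0.49 and Pik3cb 2.35 ± 0.17.

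**Figure D5:**
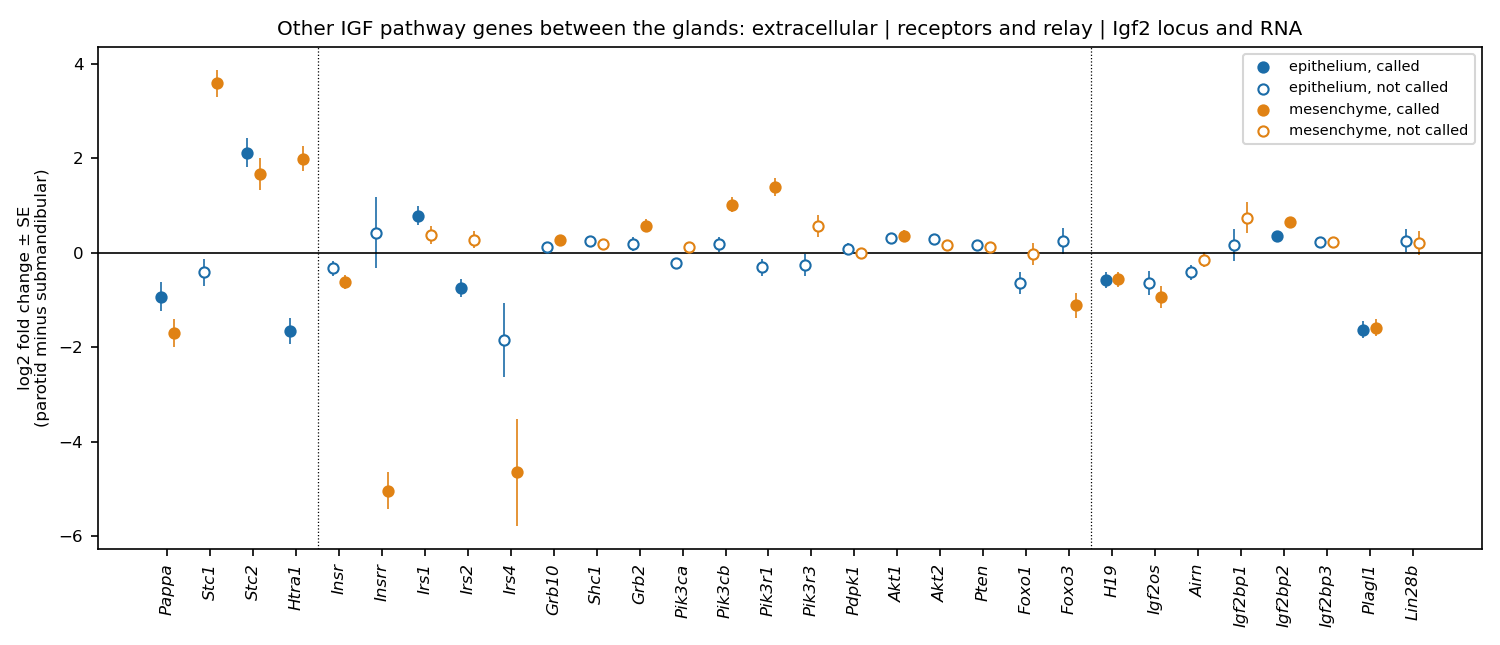
Log2 fold change with SE, parotid minus submandibular, of 30 of the 31 pathway genes tested beside the 10 members (1 is not shown), in epithelium and mesenchyme, with filled symbols for an adjusted p under 0.05. Insrr (-5.04) and Stc1 (3.58) mark the ends among the genes above 1 CPM in mesenchyme, and Plagl1 is lower in parotid in both layers.

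Of 9 genes in the Igf2 locus and RNA group, 8 were tested, and Ins2 averaged at most 0.355 CPM. Plagl1, an imprinted gene for a zinc finger factor, was lower in parotid in both layers, by 1.64 ± 0.18 on the log2 scale in epithelium (adjusted p = 1.19e-05) and by 1.59 ± 0.18 in mesenchyme (adjusted p = 3.78e-06). H19, the imprinted noncoding neighbour of Igf2, was lower in parotid by 0.58 ± 0.16 in epithelium (adjusted p = 0.0188) and by 0.56 ± 0.16 in mesenchyme (adjusted p = 0.0119), whereas the Igf2 difference was called in epithelium and not in mesenchyme. Igf2bp2, which encodes a protein that binds Igf2 mRNA, was higher in parotid in both layers, by 0.35 ± 0.12 (adjusted p = 0.0426) and 0.64 ± 0.12 (adjusted p = 0.000402). Igf2os was lower in parotid mesenchyme by 0.95 ± 0.23 (adjusted p = 0.00411). In all, 1 gene was higher and 2 lower between the epithelia, and 1 higher and 3 lower between the mesenchymes. All-gene shares in these contrasts were 11.2% and 9.72%, and 20.8% and 13.7%. Between layers Plagl1 (-3.90 ± 0.20 in parotid, -3.86 ± 0.20 in submandibular gland), H19 (-2.12 ± 0.17 and -2.11 ± 0.17) and Igf2os (-1.85 ± 0.25 and -2.16 ± 0.24) were lower in epithelium. Airn was lower there as well, by 0.85 ± 0.16 and 0.58 ± 0.16, and was not called between the glands. Between layers the group counted 2 genes higher and 4 lower in epithelium for the parotid gland, and 4 and 4 for the submandibular gland, where all genes gave 31.4% and 33.5%, and 33.3% and 33.7%.

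The genes whose pattern was most like each member over the 16 libraries were found by the root mean square difference of log2 CPM, each gene centred on its own mean. The nearest to Igf1 were Ebf3 (0.824), Clec14a (0.844) and Pear1 (0.867), and to Igf2 they were Fmo5 (0.247), Taok3 (0.251) and Fam114a1 (0.262). Those nearest to Igfbp7 were Zbtb46 (0.620), Niban1 (0.653) and Maf (0.664), each with 150 CPM or more in submandibular mesenchyme and under 30 CPM elsewhere. Nearest to Igfbp5 were Tbc1d2 (0.448), Kcnj15 (0.503) and Pdlim1 (0.546), and to Igfbp2 they were Dtx3l (0.428), Fgd4 (0.429) and Isoc1 (0.429). For Igfbp3 they were Tcf4 (0.276), Rab3a (0.294) and Hvcn1 (0.298), and for Igfbp6 Igdcc4 (0.394) and C5ar1 (0.415). For Igfbp4 they were Farp1 (0.188), Mfhas1 (0.196) and Bcar1 (0.202), for Igf1r Ncoa6 (0.130), Vegfb (0.135) and Dpp9 (0.142), and for Igf2r Tjp1 (0.201), Amigo3 (0.221) and Itgav (0.230). Among the members themselves Igf1r and Igfbp4 were nearest to each other, at 0.308. Smaller values also come with genes that vary little, and all points share the same libraries.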

How the data were processed

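Per the labels' protocols, full-length cDNA was made with SMART-Seq and libraries with Nextera XT, which do not mark strand, from RNA with integrity values above 8.7. Replicates are independent biological ones by the labels, which do not say how many embryos each pooled. Per the submitters' processing notes STAR 2.5.2a and edgeR were used with GRCm38 (mm10); for the read counter and annotation the sources used here give no name. Raw counts as deposited by the authors, whole numbers for 48709 genes and 92 spike-in features, were tested. The deposited normalized signal was used only as a check: edgeR's CPM with TMM scaling on its 23400 features gave the same values to within a relative difference of 5e-15.

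Spike-ins were left out of library sizes. One edgeR 4.0.16 quasi-likelihood model (R 4.3.3, robust, TMM, filterByExpr) with a coefficient for each of 4 groups was fitted to 16 libraries, and 5 contrasts were tested. The SE is the log2 fold change divided by the square root of F. Called means a Benjamini-Hochberg adjusted p under 0.05 over all 18191 genes. On simulated data the procedure was tested before use. In all 24 replicate pairs counts differed beyond sampling noise (chi-square per gene 10.5 to 54), so each library was counted once. CPM per kilobase uses the summed exon length of GENCODE M21, and promoters come from RefSeq GRCm38.p6, with all 10 genes matched by symbol. The members, gene lists and tests were chosen with earlier results of these data known. Named are all members, up to 3 called genes of each pathway list and contrast with the largest change, genes overlapping or next to members, and the 3 nearest genes in pattern with a symbol other than a predicted one. Of the genes this rule takes, 2 are not reported here. Alternatives were other scalings (DESeq2 size factors, upper quartile), tests (DESeq2 1.42.0, limma-voom in limma 3.58.1) and filters, a replicate block, the 8 libraries compared alone, leaving out each library, and 2 sets of epithelial libraries left out after seeing the data.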

Additional observations from a re-analysis of the deposited data

Results flagged for a closer look

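In 5 groups of 4 libraries, 1 library of a member stood far from the other 3 by Dixon's test, which chance alone does in about 1 of 20 groups, and 40 groups were looked at. Igf1 was 1008 CPM in submandibular mesenchyme replicate 4, beside 871 to 878 in the others, and Igfbp4 was 951.9 CPM in the same library, beside 769 to 792. Igfbp2 was 438.4 CPM in submandibular epithelium replicate 3, beside 256 to 272. That library also had the most Igf1, Igf2, Igfbp3, Igfbp5 and Igfbp7 RNA of its group. Igfbp2 was 324.6 CPM in submandibular mesenchyme replicate 3, a gap that is large only because the other 3 libraries lay within 335 to 337 CPM. Igfbp4 was 541.5 CPM in parotid epithelium replicate 1, beside 843 to 871.

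For 4 genes the gland difference was not the same in the layers by the interaction test. Its log2 value was 2.33 for Igfbp2, 2.80 for Igfbp7, -0.91 for Igf2 and -0.93 for Igf2r. The last had the highest adjusted p of the 4, 0.0461.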

How the results depend on the processing

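Of the 50 values (10 genes in 5 contrasts), 34 kept their call and direction in every alternative, 13 changed a call in at least 1, and 3 changed sign. Of the 31 calls, 26 held in every alternative that gave an adjusted p; DESeq2 gave none for Igf1. The number of genes called ranged over the alternatives from 4 to 6 (5 as reported) between the epithelia, 4 to 6 (5) between the mesenchymes, 9 to 10 (9) and 7 to 8 (8) between the layers of the parotid and submandibular gland, and 3 to 5 (4) for the interaction. The values that changed sign were interactions, none called in either fit: Igf1 (0.24 as reported) was -0.363 by limma-voom, -1.12 without the 2 epithelial libraries richest in erythroid markers, and -1.117 (without parotid epithelium replicate 4) to 0.8684 when leaving out 1 library. Leaving out 1 library gave -0.02353 (without parotid epithelium replicate 2) to 0.246 for Igf1r (0.097) and -0.1595 (without submandibular mesenchyme replicate 4) to 0.3749 for Igfbp5 (0.19), which was -0.1016 without parotid mesenchyme replicate 4. The interaction of Igfbp3, 0.69 ± 0.25 (adjusted p = 0.0623), was called in 8 alternatives, with a lowest adjusted p of 0.0163. That of Igfbp4, 0.39 ± 0.23 (adjusted p = 0.256), was called in 1, without submandibular epithelium replicate 4 (0.59, adjusted p = 0.0469). The causes were not tested. Upper-quartile scaling moved the median of all genes by -0.111 on the log2 scale between the mesenchymes, where it called 2938 genes higher and 3420 lower in parotid, beside 3785 and 2497. Between the epithelia it called 1676 higher and 2098 lower, beside 2033 and 1768.

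The replicate numbers gave no clear pairing over all groups: correlations of same-numbered libraries ran from -0.12 to 0.218 and 3 of 24 were above 0.1. Between the submandibular layers the same-numbered correlations were 0.215, 0.218, 0.0507 and 0.0211. Those of different numbers there ran from -0.168 to 0.214, so pairing of these layers is not excluded. With the number as a block, 4 genes were called between the epithelia, 5 between the mesenchymes, 9 and 8 between the layers and 3 for the interaction. The calls lost with the block were Igfbp5 between the epithelia (adjusted p = 0.0627) and the interaction of Igf2r (adjusted p = 0.0703). Depth limits the epithelial readings of Igf1, Igfbp6 and Igfbp7, which rest on as few as 7, 5 and 7 counts in a library.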
